A study of Rattus norvegicus with 6 samples.

Results

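The matrix metalloproteinases (MMPs), the ADAM and ADAMTS proteases and the tissue inhibitors of metalloproteinases (TIMPs) were described here in NRK-52E cells, an established line of rat kidney epithelial cells, with and without streptozotocin (STZ). Their members were the rows of the count table whose symbol starts with Mmp, Adam or Adamts and a number, or is Timp1 to Timp4, and 51 of the 18930 rows met this rule: 15 MMPs, 18 ADAMs, 16 ADAMTS genes and 2 TIMPs. The cells were of wild-type genotype in both groups, and 3 samples were kept in STZ at 10 mM for 24 h (STZ) and 3 received vehicle (Control). All 6 samples came from this one line, so the comparison speaks for NRK-52E cells alone, and nothing in the labels says whether the replicates were separate cultures. The p-values therefore measure the spread between these samples, which may be technical. Total counts ranged from 10430924 to 15191349 per sample, and the 51 genes together took 0.204% to 0.209% of the counts in Control and 0.233% to 0.236% in STZ.

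The cell type on the label was checked against markers. Krt8, a keratin of simple epithelia, was high, with 1102 to 1178 CPM in Control and 1597 to 1613 CPM in STZ (CPM, reads scaled by TMM to a common library size of 1e+06). Of the other epithelial and proximal tubular markers, Cdh1, which encodes E-cadherin, had at most 35 reads in any sample, Krt18 at most 3, and Lrp2 and Slc34a1 at most 4 and 2. Cdh1 fell with STZ, with a log2 fold change of -0.69 (standard error 0.27, edgeR adjusted p = 0.03). Aqp1, a water channel of the proximal tubule and the one marker of that segment with enough reads to be tested, had 15.2, 15.2 and 8.81 CPM in the Control samples and 5.89, 5.73 and 4.67 CPM in the STZ samples. The groups did not overlap, and its log2 fold change was -1.25 (standard error 0.16, edgeR adjusted p = 9.4e-09), past both thresholds. Vim, a mesenchymal intermediate filament gene, was abundant in all samples, with 1893 to 2106 CPM in Control and 1828 to 1870.0 CPM in STZ. The data thus describe cells with strong Krt8 and Vim and little RNA of Lrp2 and Slc34a1, and with Aqp1 lower in STZ.

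MMPs are zinc-dependent proteases that cut collagens, laminins and other matrix proteins, either after secretion or while anchored in the plasma membrane. ADAMs are transmembrane proteins, many of which release ligands and receptors from the cell surface, whereas ADAMTS proteins are secreted and process proteoglycans, procollagens and microfibrils. TIMPs bind the active site of these enzymes and block it. In the kidney, the balance of these proteases and inhibitors governs turnover of the tubular basement membrane and is best known from fibrosis and tubular repair. Most of the proteases are made as inactive precursors, so RNA levels do not measure enzyme activity.

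Of the 51 genes, 29 had enough reads to be tested, and none of these reached the read filter through one group alone. By the quasi-likelihood test of edgeR, with a threshold of 0.05 on the adjusted p, STZ raised 13 of the 29 and lowered 5, which is 62.1% of them, while 50.9% of all 11870 genes tested passed the same threshold. By direction, the background was 25.9% of genes higher and 25.1% lower. A larger gap lay in the size of the changes. With an absolute log2 fold change over 1 required as well, 5 of the 29 genes (17.2%) were called, against 3.37% of all genes. Of these, 4 were higher, against 2.26% of all genes, and 1 was lower, against 1.11%. These 5 were Mmp2, Adam8, Mmp19 and Mmp15, which rose, and Adamts20, which fell. The median log2 fold change of the 29 genes was 0.10, against -0.01 over all genes, and the median of the absolute values was 0.34, against 0.19. When edgeR's glmTreat tested against a fold of 1.2, the smaller changes of Adamts1, Mmp16, Mmp11, Adam10, Mmp14, Adam15 and Adam9 were no longer called, and 11 of the 29 genes were. Control and STZ samples did not overlap in CPM for 18 of the 29 genes (62.1%), and this held for 56.3% of all genes.

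The calls are given here by family, against 25.9% of all genes called higher and 25.1% lower. Among the MMPs, 6 of 9 tested genes rose and 2 fell, with a median log2 fold change of 0.58. Among the ADAMs, 5 of 8 rose and 1 fell, with a median of 0.17. Among the ADAMTS genes, 1 of 10 rose and 2 fell, with a median of -0.12. Of the 2 TIMPs, Timp1 rose and Timp3 did not pass the threshold. These are counts over few genes, and the families were not tested against each other.

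**Figure D1:**
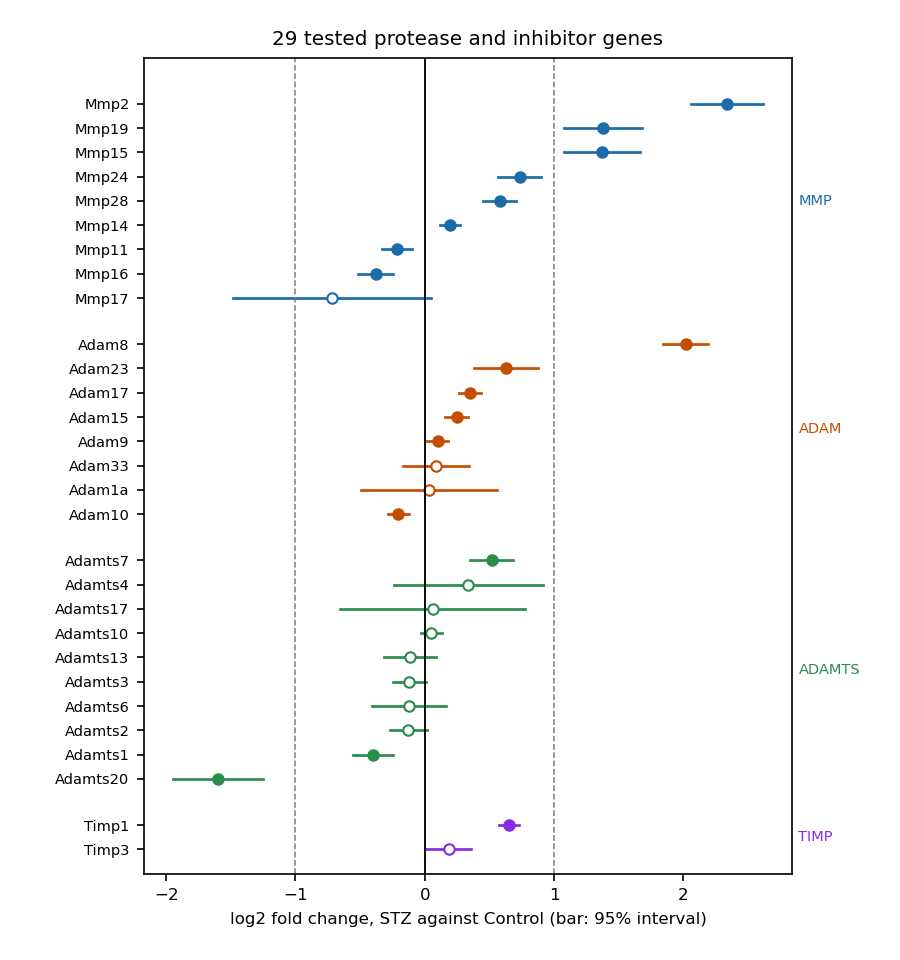
Log2 fold change of STZ against Control for the 29 tested genes, by family. Points are edgeR estimates and bars their 95% intervals, filled points have an adjusted p under 0.05, and dashed lines mark log2 fold changes of -1 and 1. Mmp2, Adam8, Mmp19 and Mmp15 lie to the right of 1 and Adamts20 lies to the left of -1.

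**Figure D2:**
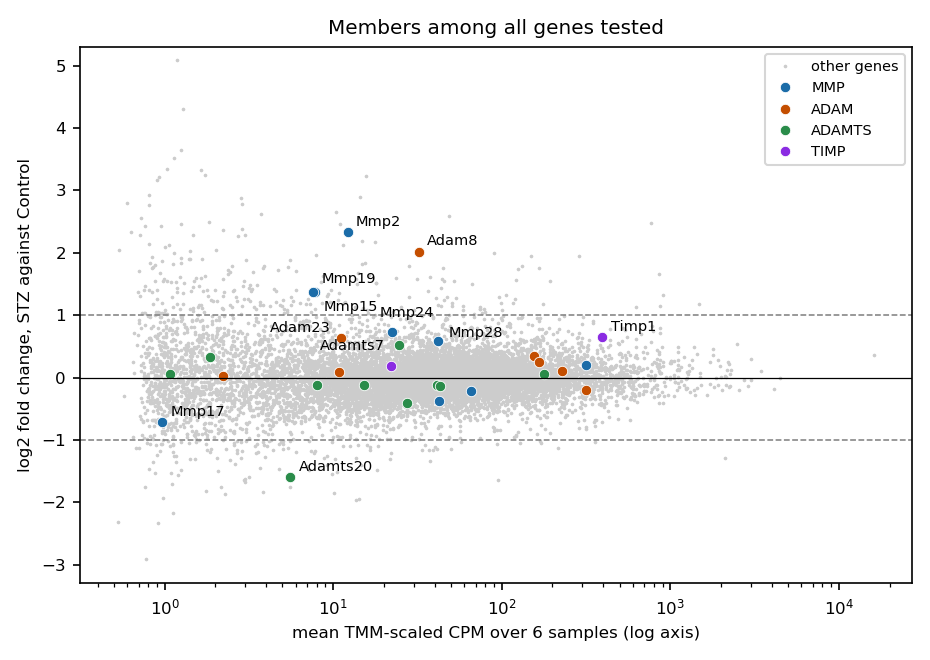
Mean CPM over the 6 samples (log axis) against the log2 fold change for all 11870 genes tested, in grey, with the 29 protease and inhibitor genes coloured by family. Mmp2 and Adam8 stand apart from most genes of similar abundance, while Timp1 combines a moderate rise with the highest mean CPM of the 29.

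The start regions of the strongly changed genes are shown because they precede an annotated start of each gene, although which start these cells used was not measured. The 250 bases upstream of the transcription start were taken from RefSeq (GRCr8) for Adam8, Mmp15 and Adamts20, the genes past both thresholds with an entry, and for Timp1, the inhibitor that rose. Mmp2 and Mmp19 had no entry. Each is written 5′ to 3′ in the direction of transcription, and capitals mark matches to the GC box GGGCGG, the AP-1 motif TGANTCA or its variant TGAGTAA, searched on both strands. No match of one motif overlapped a match of another. The variant was added after the Timp1 sequence had been read.
Adam8, GRCr8 chr1:204218323-204218572, minus strand: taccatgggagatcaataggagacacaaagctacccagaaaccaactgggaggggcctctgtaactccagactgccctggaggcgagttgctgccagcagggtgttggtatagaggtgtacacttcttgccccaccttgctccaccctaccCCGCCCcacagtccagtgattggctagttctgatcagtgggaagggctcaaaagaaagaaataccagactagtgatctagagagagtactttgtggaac
Mmp15, GRCr8 chr19:9691001-9691250, minus strand: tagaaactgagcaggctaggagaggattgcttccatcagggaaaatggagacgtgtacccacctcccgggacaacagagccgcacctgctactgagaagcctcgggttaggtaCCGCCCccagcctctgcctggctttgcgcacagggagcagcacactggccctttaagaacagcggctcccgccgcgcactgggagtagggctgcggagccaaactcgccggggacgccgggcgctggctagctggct
Timp1, GRCr8 chrX:3771123-3771372, minus strand: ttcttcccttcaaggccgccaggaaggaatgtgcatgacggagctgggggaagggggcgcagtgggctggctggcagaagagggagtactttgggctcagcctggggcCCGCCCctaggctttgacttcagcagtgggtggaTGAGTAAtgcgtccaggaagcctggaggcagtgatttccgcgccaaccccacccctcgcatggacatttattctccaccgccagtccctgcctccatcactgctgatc
Adamts20, GRCr8 chr7:127407297-127407546, minus strand: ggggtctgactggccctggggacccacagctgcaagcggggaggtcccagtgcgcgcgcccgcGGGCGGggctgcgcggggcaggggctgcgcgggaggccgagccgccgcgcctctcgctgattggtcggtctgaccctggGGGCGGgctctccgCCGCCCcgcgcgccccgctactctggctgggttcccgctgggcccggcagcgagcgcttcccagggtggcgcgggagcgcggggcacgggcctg

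Adam8, Mmp15 and Timp1 each held 1 GC box, in their complementary form, and Adamts20 held 3. Timp1 was the one of the 4 with TGAGTAA, located 108 to 102 bases upstream of the start, and none of the 4 held TGANTCA. The GC content of the 4 sequences ran from 52.4% in Adam8 to 80.0% in Adamts20. Of the 29 tested genes, 21 had a promoter entry (where several starts were listed, the first was used), and 15 of these 21 held a GC box (71.4%), against 61.2% of the promoters of tested genes with an entry and 32.4% of all 27457 promoters. TGANTCA was in 0 of the 21, 4.02% of tested genes' promoters and 6.36% of all promoters. TGAGTAA was in 2 of the 21, Timp1 and Adamts13, and in 1.37% and 2.25% of these backgrounds. Since TGAGTAA was searched because it had been read in Timp1, that match was certain. The share of the 21 can therefore not be set against the backgrounds. GC boxes were found in 7 of 8 genes that rose, 4 of 4 that fell and 4 of 9 that were not past the threshold, and these shares were not tested against each other. These matches describe letters in a short window and say nothing about binding.

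Mmp2, which encodes gelatinase A, an enzyme that degrades the type IV collagen of basement membranes, had the largest rise of all 29 genes. It had 5.18, 3.64 and 3.35 CPM in the Control samples and 22.5, 20.6 and 17.9 CPM in the STZ samples. Every STZ sample was far above the highest Control sample. Its log2 fold change was 2.33 (standard error 0.14, edgeR adjusted p = 2.2e-18), a 5.04-fold rise from a low level of 55, 40 and 43 reads in Control. Mmp9, the other gelatinase, did not have enough reads to be tested, with 9, 6 and 4 reads in the Control samples and 3, 4 and 7 reads in the STZ samples. The groups overlapped in Mmp9, and no change was detectable at this depth.

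The remaining secreted MMPs went in different directions. Mmp19, a protease of basement membrane components, had 4.90, 3.27 and 4.44 CPM in the Control samples and 11.1, 10.4 and 11.3 CPM in the STZ samples, and its log2 fold change was 1.38 (standard error 0.15, edgeR adjusted p = 1.8e-10). Mmp28, also called epilysin and known from epithelia, had 32.1, 33.6 and 35.0 CPM in the Control samples and 48.7, 52.6 and 49.8 CPM in the STZ samples. Every STZ sample was above every Control sample in both genes. The log2 fold change of Mmp28 was 0.58 (standard error 0.06, edgeR adjusted p = 3.1e-10), which is under the fold-change threshold. Mmp11, or stromelysin-3, which furin activates inside the cell, was slightly lower with STZ, at 58.1 to 65.6 CPM against 66.7 to 77.0 CPM in Control, a log2 fold change of -0.21 (standard error 0.06, edgeR adjusted p = 0.0018). Its span overlaps Chchd10 in GRCr8, a gene that moved the other way, with a log2 fold change of 0.38 (edgeR adjusted p = 0.011).

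Of 5 membrane-anchored MMPs tested, 3 rose, 1 fell and 1 was not past the threshold, against 25.9% of all genes higher and 25.1% lower. Mmp15 had 3.58, 4.46 and 4.99 CPM in the Control samples and 12.4, 10.8 and 10.8 CPM in the STZ samples, without overlap between the groups, and its log2 fold change was 1.37 (standard error 0.15, edgeR adjusted p = 1.5e-10). Mmp24, known for cutting cadherins, had 17.7, 16.6 and 16.1 CPM in the Control samples and 28.5, 26.7 and 28.4 CPM in the STZ samples, and its log2 fold change was 0.73 (standard error 0.08, edgeR adjusted p = 6.1e-10). Their fitted folds were 2.58 and 1.66. Mmp14, the collagenase of the cell surface and an activator of pro-MMP2, changed little in comparison. Its CPM was 289 to 299 in Control and 328 to 353 in STZ, and its log2 fold change was 0.19 (standard error 0.04, edgeR adjusted p = 4.5e-05).

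Mmp16, another membrane-anchored activator of pro-MMP2, fell. It had 47.6, 43.3 and 52.3 CPM in the Control samples and 35.0, 37.9 and 37.6 CPM in the STZ samples, and its log2 fold change was -0.38 (standard error 0.07, edgeR adjusted p = 7.2e-06). The 2 activators thus moved in opposite directions, Mmp14 by 1.14-fold and Mmp16 to 0.769-fold of Control, while Mmp2 itself rose 5.04-fold. Mmp17 had few reads, 19, 8 and 14 reads in the Control samples and 12, 8 and 9 reads in the STZ samples, and its log2 fold change of -0.72 (95% interval -1.48 to 0.05) did not pass the threshold (edgeR adjusted p = 0.11).

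**Figure D3:**
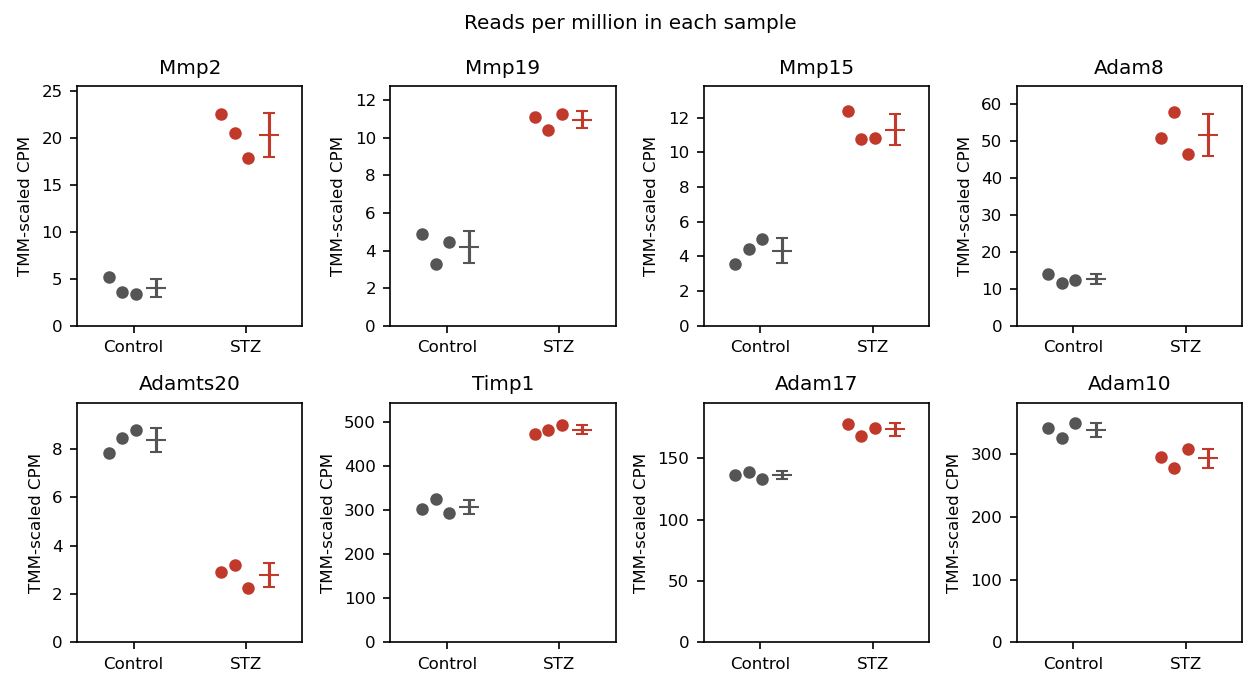
TMM-scaled CPM in each of the 3 Control and 3 STZ samples for 8 genes, with the mean and SD beside the points and axes from 0. Adamts20 and Adam10 are lower with STZ and the other 6 are higher. The 8 genes were picked from those already called, so the lack of overlap in all 8 panels adds no support. Of all genes tested, 56.3% did not overlap.

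Adam8 had the smallest p-value of the 29 genes. It encodes a protease of the cell surface that sheds adhesion molecules and is best known from leukocytes. Adam8 had 14.1, 11.5 and 12.5 CPM in the Control samples and 50.8, 57.9 and 46.6 CPM in the STZ samples. The groups lay far apart, and the log2 fold change was 2.02 (standard error 0.09, edgeR adjusted p = 5.4e-23). The 4 leukocyte markers were mixed. Ptprc, a surface phosphatase of these cells, had at most 1 read in any sample and Lyz2 at most 1. Cd14 had 100 to 103 CPM in Control and 119 to 126 CPM in STZ. It rose, with a log2 fold change of 0.26 (standard error 0.05, edgeR adjusted p = 5.7e-06). Cd68 had 7 to 29 reads per sample and was not past the threshold.

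The ADAMs known as the main sheddases moved apart. Adam17, which releases TNF-alpha and ligands of the EGF receptor, had 137, 139 and 133 CPM in the Control samples and 178, 168 and 175 CPM in the STZ samples, and its log2 fold change was 0.35 (standard error 0.04, edgeR adjusted p = 3.5e-09). Adam10, which cuts Notch and the amyloid precursor protein, had 341, 327 and 349 CPM in the Control samples and 296, 278 and 308 CPM in the STZ samples, and its log2 fold change was -0.21 (standard error 0.04, edgeR adjusted p = 3.2e-05). These changes are small, 1.27-fold and 0.867-fold, but neither gene's groups overlapped. The reads of Adam17 over those of Adam10 within each sample, a ratio free of library scaling, were 0.400, 0.425 and 0.381 in Control and 0.601, 0.604 and 0.568 in STZ, a 1.47-fold rise of the ratio. The exact two-sided permutation p for this ratio was 0.1, the smallest that 3 samples against 3 allow. The ratio was chosen after both genes' values were seen, so its separation adds no support to their calls.

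Adam23, a member without protease activity that binds integrins, rose from 8.28 to 8.89 CPM to 11.4 to 15.2 CPM, a log2 fold change of 0.63 (standard error 0.12, edgeR adjusted p = 3.1e-05). Adam15 and Adam9, named after their values were seen, were among the abundant ADAMs and rose slightly, with log2 fold changes of 0.25 and 0.10. The call of Adam9 (edgeR adjusted p = 0.035) was lost under library size only, the upper quartile, no read filter, DESeq2 and glmTreat, and without Control replicate 1, Control replicate 2, STZ replicate 1 or STZ replicate 3. Adam33 had a log2 fold change of 0.09 and Adam1a of 0.03, and neither passed the threshold. Adam1a had 21, 19 and 37 reads in the Control samples and 40, 18 and 34 reads in the STZ samples, so its interval was wide (-0.49 to 0.56).

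Among the ADAMTS proteoglycanases, which cut aggrecan, versican and related molecules, 2 of 3 tested genes fell, against 25.1% of all genes. Adamts20, known for cutting versican during skin pigment cell development, had 7.82, 8.46 and 8.81 CPM in the Control samples and 2.91, 3.21 and 2.27 CPM in the STZ samples. No STZ sample reached the lowest Control sample, and the log2 fold change was -1.60 (standard error 0.17, edgeR adjusted p = 1.6e-10). In reads, Adamts20 had 83, 93 and 113 in Control and 40, 37 and 34 in STZ. Adamts1, an aggrecanase, had 31.0, 29.7 and 32.6 CPM in the Control samples and 21.9, 23.2 and 25.5 CPM in the STZ samples, and its log2 fold change was -0.40 (standard error 0.08, edgeR adjusted p = 2.6e-05). Adamts4, a further aggrecanase, had a log2 fold change of 0.34 from 15 to 41 reads per sample and did not pass the threshold (edgeR adjusted p = 0.34).

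Adamts7, which degrades cartilage oligomeric matrix protein, was the one ADAMTS gene that rose. It had 19.9, 21.7 and 19.4 CPM in the Control samples and 32.0, 27.6 and 27.5 CPM in the STZ samples, and its log2 fold change was 0.52 (standard error 0.08, edgeR adjusted p = 1.1e-06). The procollagen N-proteinases Adamts2 and Adamts3, which trim fibrillar procollagens, did not pass the threshold, with log2 fold changes of -0.13 (95% interval -0.27 to 0.01) and -0.12 (95% interval -0.25 to 0.01). Both were called lower under some alternatives, Adamts3 with library size only and Adamts2 without Control replicate 3 or STZ replicate 2. Col3a1, a fibrillar collagen gene and one of the mesenchymal markers, fell with a log2 fold change of -1.35 in the same samples. Adamts10, which acts on fibrillin microfibrils and had the most reads of its family, was at 171 to 179 CPM in Control and 176 to 188 CPM in STZ, and its interval of -0.03 to 0.14 spanned 0. Adamts17, with the fewest reads of the tested ADAMTS genes, had a log2 fold change of 0.06 (95% interval -0.65 to 0.78). Adamts6 and Adamts13 were not past the threshold either.

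Timp1, a secreted inhibitor of most MMPs and a gene known to rise in injured kidney, was higher in every STZ sample. It had 303, 325 and 293 CPM in the Control samples and 473, 481 and 494 CPM in the STZ samples, and its log2 fold change was 0.65 (standard error 0.04, edgeR adjusted p = 3.3e-18). The rise of 1.57-fold rested on 3215 to 7398 reads per sample, so counting error was small. In GRCr8 Timp1 lies within the span of Syn1, which had 49 to 111 reads per sample. Timp3, the matrix-bound inhibitor that also blocks ADAM17, had 21.8, 21.3 and 19.0 CPM in the Control samples and 24.5, 25.3 and 20.9 CPM in the STZ samples. The groups overlapped, and the log2 fold change of 0.18 (95% interval 0.01 to 0.36) was not past the threshold (edgeR adjusted p = 0.074). Without STZ replicate 3 it was 0.27 (edgeR adjusted p = 0.017), so that library decided the call. Timp3 overlaps Syn3, whose log2 fold change was -1.02 (edgeR adjusted p = 1.8e-06). Whether strand was used in counting is unknown, and reads of a gene and its overlapping partner may be mixed.

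Ratios of reads between genes within a sample do not depend on library scaling, although their level depends on gene length and only their change can be read. The ratio of Mmp14 to Timp1 was 0.979, 0.887 and 1.02 in Control and 0.700, 0.735 and 0.664 in STZ, a fall to 0.727-fold. The ratio of Mmp2 to Timp1 was 0.0171, 0.0112 and 0.0115 in Control and 0.0477, 0.0428 and 0.0362 in STZ, a 3.23-fold rise. Relative to Timp1, reads therefore moved down for Mmp14 and up for Mmp2. Whether Timp1 restrains either enzyme in these cells was not tested, and Timp2 was not analysed. Timp1 to Timp3 was 13.9, 15.3 and 15.4 in Control and 19.3, 19.0 and 23.6 in STZ. With Adam17 to Adam10, 4 ratios were compared, each without overlap between the groups. Each had an exact two-sided permutation p of 0.1, or 0.1 after Benjamini-Hochberg adjustment over the 4, the smallest this design allows. All 4 were chosen after the values of their genes were seen, so these p-values add no support to the calls of single genes.

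**Figure D4:**
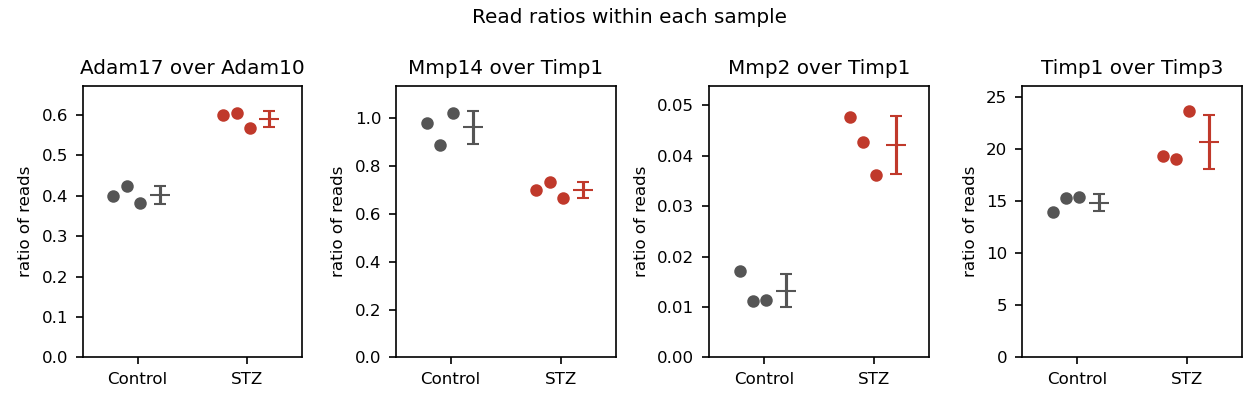
Ratio of the raw reads of 2 genes in each of the 3 Control and 3 STZ samples, with the mean and SD beside the points and axes from 0. Mmp14 over Timp1 is lower in STZ, and Adam17 over Adam10, Mmp2 over Timp1 and Timp1 over Timp3 are higher.

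No sample held more than 9 reads of any of the other 22 genes, which were not tested with the read filter. They were 10 ADAMs, 6 ADAMTS genes and 6 MMPs. Mmp9 was the highest of them, followed by Adam11 with at most 8 reads and by Adam12, Adam32 and Adamts12 with at most 4 reads each. Mmp13, the collagenase of cartilage, and Mmp12, the macrophage elastase, had 1 read each over all samples, and 12 of the 22 genes had no more than 1 read in any sample. A count of 0 in a library allows up to 3 reads, so a gene at 0 is not shown to be silent. Others, such as Mmp9 and Adam12, had reads in every sample but too few to be tested. None of the 22 was called when all genes were tested without a filter. The GRCr8 gene list holds 26 further protein-coding symbols that meet the rule, among them Timp2, Timp4, Mmp3 and Mmp7, which were not analysed here.

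Genes that activate, anchor or restrain these proteases formed a second list of 36 genes, of which 32 were in the table and 25 were tested. One of them, Serpinb2, passed the read filter through the STZ group alone and so had to differ. STZ raised 11 and lowered 5 of the other 24 (edgeR adjusted p-value under 0.05), which is 66.7% against 50.9% of all genes, and 2 (8.33%) passed both thresholds against 3.37%. Their median log2 fold change was 0.11. With Serpinb2, 12 rose and 3 passed both thresholds. Under glmTreat against a fold of 1.2, Bsg, Furin, Pcsk5, Pcsk6, Pcsk7, Plat, Rhbdf2, Tspan5 and Tspan14 were no longer called.

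Of 5 tested genes of the plasminogen system, which activates MMPs outside the cell, Plaur and Plat were called higher and none was called lower, leaving Serpinb2 aside. Serpinb2 passed the read filter through the STZ group alone, so it is not set against the background of 25.9% of all genes higher and 25.1% lower. Plaur, the receptor of urokinase, had a log2 fold change of 0.47 (standard error 0.05, edgeR adjusted p = 6.7e-11), whereas Plau, urokinase itself, had at most 3 reads. Serpinb2, which encodes an inhibitor of urokinase, had 3, 4 and 6 reads in the Control samples and 21, 21 and 24 reads in the STZ samples and is given as reads alone, since its call follows from the filter. Plat, which encodes tissue plasminogen activator, had a log2 fold change of 0.13 (standard error 0.04, edgeR adjusted p = 0.0057), and the call was lost without STZ replicate 1. Serpine2, an inhibitor of serine proteases, and Plgrkt, a plasminogen receptor, did not pass the threshold, with log2 fold changes of 0.19 and -0.14. Cd44, a hyaluronan receptor that anchors MMPs at the surface, had 41.9, 49.0 and 51.2 CPM in the Control samples and 99.1, 98.8 and 109 CPM in the STZ samples, and its log2 fold change was 1.11 (standard error 0.06, edgeR adjusted p = 6.1e-20). Bsg, an inducer of MMPs, had a log2 fold change of 0.10 (edgeR adjusted p = 0.017), a call that was lost under library size only, the upper quartile, glmTreat and 3 of the 6 fits without a sample (Control replicate 3, STZ replicate 1 or STZ replicate 2).

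Cofactors of the sheddases were also measured. Frmd8, which stabilises the complex of iRhom and ADAM17 at the surface, had 84.4, 81.7 and 84.8 CPM in the Control samples and 127, 139 and 131 CPM in the STZ samples, and its log2 fold change was 0.66 (standard error 0.05, edgeR adjusted p = 1.2e-15). Of the iRhom genes, Rhbdf2 rose, with a log2 fold change of 0.33, and Rhbdf1 was not past the threshold, with 0.09. Adam17 and 2 of its 3 listed cofactors were thus called higher with STZ, as were 25.9% of all genes. For ADAM10, tetraspanins direct the protease to different substrates. Of 5 tested, 2 rose and 1 fell, against 25.9% of all genes higher and 25.1% lower. Tspan15 rose, with a log2 fold change of 0.62, and Tspan14 rose by 0.12, while Tspan5 fell, with -0.23 (standard error 0.06, edgeR adjusted p = 0.0015). Tspan17 and Tspan33 were not past the threshold, with log2 fold changes of 0.17 and -0.11. The call of Tspan14 was lost under library size only and without Control replicate 1 or STZ replicate 2, and that of Rhbdf2 without STZ replicate 2.

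Among the remaining genes of the list, Furin, the convertase that removes the propeptide of many ADAMs and membrane-anchored MMPs, was lower with STZ, with 752, 727 and 792 CPM in the Control samples and 625, 649.5 and 616 CPM in the STZ samples. Its log2 fold change was -0.27 (standard error 0.04, edgeR adjusted p = 7e-08). Of the other convertases, Pcsk6 fell and Pcsk5 and Pcsk7 rose, with log2 fold changes between -0.18 and 0.40. Single libraries decided some of these calls: Pcsk5 was lost without Control replicate 3, STZ replicate 2 or STZ replicate 3 and under DESeq2, Pcsk6 without STZ replicate 3, and Pcsk7 without Control replicate 1 or Control replicate 2. The largest fall of the list was in Adamtsl3, an ADAMTS-like gene without a protease domain, which had 57.6, 54.7 and 50.1 CPM in the Control samples and 23.8, 25.2 and 23.5 CPM in the STZ samples, and its log2 fold change was -1.16 (standard error 0.07, edgeR adjusted p = 2.3e-18). Adamtsl5 moved the other way, with 0.65. Reck, a membrane-bound MMP inhibitor, was not past the threshold, with a log2 fold change of -0.02 (95% interval -0.18 to 0.13), and Spock2, a matrix proteoglycan of the testican family, fell from 2.42 to 3.87 CPM to 1.27 to 1.82 CPM, a call that was lost without Control replicate 1 (edgeR adjusted p = 0.068).

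**Figure D5:**
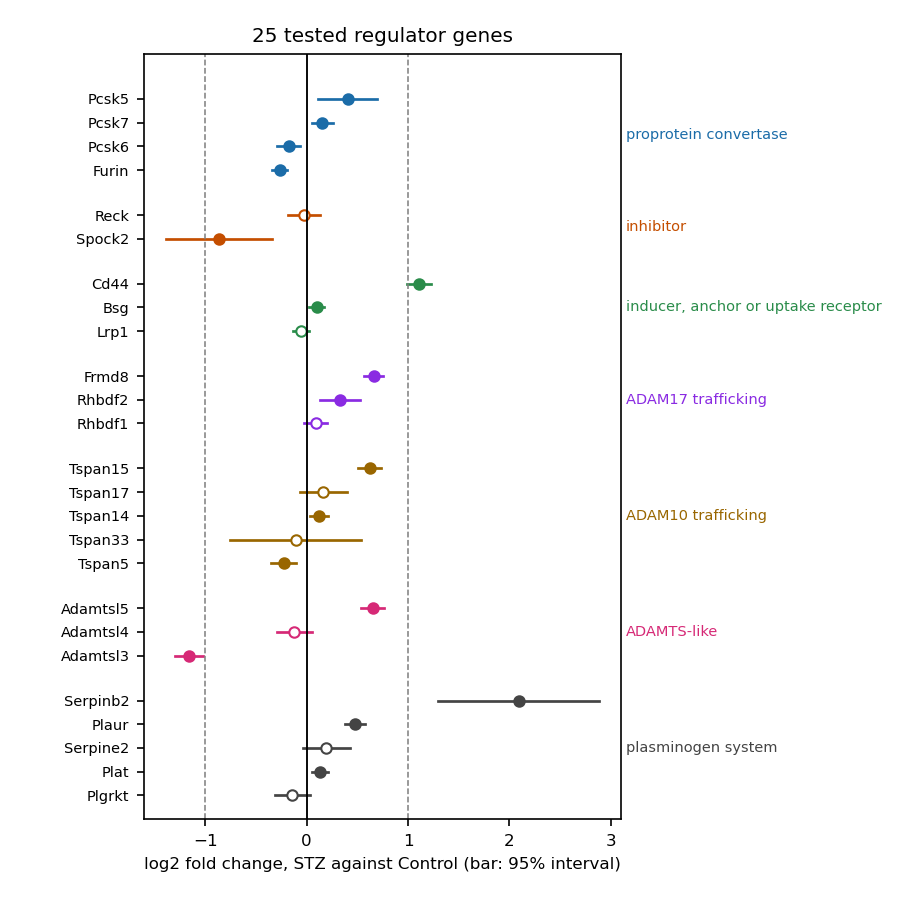
Log2 fold change of STZ against Control for the 25 tested genes that activate, anchor or restrain the proteases, by role. Points are edgeR estimates with 95% intervals, and filled points have an adjusted p under 0.05. Serpinb2 and Cd44 lie to the right of 1 and Adamtsl3 lies to the left of -1.

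Markers of these and other cell types moved with treatment to some extent. Of the 7 mesenchymal markers, 5 were tested and all 5 fell (edgeR adjusted p-value under 0.05), while 25.1% of all genes were called lower. Col3a1 alone passed both thresholds, and the groups of Col1a1 overlapped. The summed level of the 7 was 2053 to 2262 CPM in Control and 1939 to 1970.3 CPM in STZ, with Pdgfra and Col1a2 at no more than 4 and 2 reads. The summed level of the 4 epithelial markers in the table, nearly all of it Krt8, was 1105 to 1179.8 CPM in Control and 1599 to 1615 CPM in STZ. Cdh1 was called lower, but its groups overlapped. The 5 proximal tubule markers in the table, mostly Aqp1, summed to 9.83 to 16.5 CPM in Control and 5.74 to 6.83 CPM in STZ. The 4 leukocyte markers summed to 102 to 104 CPM in Control and 121 to 129 CPM in STZ, nearly all of it Cd14. The 4 endothelial markers summed to 0.455 to 0.754 CPM in Control and 0.800 to 1.13 CPM in STZ and none was tested. Among them Kdr had 0, 2 and 1 reads in the Control samples and 6, 9 and 7 reads in the STZ samples, Cdh5 was at 0 in every Control sample, and Pecam1 and Tek had at most 2 and 7 reads. Their part in the values above was not tested, and in bulk RNA, fewer cells of one kind and less RNA per cell cannot be told apart.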

How the data were processed

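Poly(A) RNA of 3 Control and 3 STZ samples was sequenced from TruSeq stranded mRNA libraries. Alignment by the authors used STAR 2.7.10a and the Rnor6 assembly, and they deposited raw counts per gene, made by featureCounts from uniquely mapped reads. The annotation release and strand setting are not given in the sources used here. Each column was assigned to its sample by the labels, and none was left over. Within groups, replicates differed beyond sampling noise (chi-square per degree of freedom of at least 1.80).

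Counts were filtered with filterByExpr and scaled by TMM (factors 0.988 to 1.02), and groups were compared across all 11870 remaining genes by the quasi-likelihood test of edgeR 4.0.16 (R 4.3.3), with p-values adjusted by the Benjamini-Hochberg method. Standard errors are the absolute log2 fold change over the square root of F. Differential expression by both thresholds followed the paper, with a threshold of 0.05 on the adjusted p and of 1 on the absolute log2 fold change. The median of all genes moved by less than 0.1 on the log2 scale under other scalings.

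The members, gene lists and tests were chosen with earlier results of these data known. Genes named were those past both thresholds, the 10 largest rises and falls, TIMPs, Mmp2, Mmp9, Mmp14, Adam10 and Adam17, the most and least abundant tested gene of each family, and of the regulators the 4 largest rises and falls with Furin, Reck, Bsg, Plau and Plaur. One gene of the regulator list is not reported here and was left out of its counts. Other genes named were chosen after their values were seen. ADAMs were not split by zinc-binding motif, since no protein sequences were used here. Alternatives were 2 filters, 3 scalings, DESeq2 1.42.0, limma-voom (limma 3.58.1), glmTreat against a fold of 1.2, a replicate block and each sample left out. The steps were tested on simulated counts. Symbols of 42 genes looked up for overlaps were all found in GRCr8; gene coordinates are not given, because the counts use another build.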

Additional observations from a re-analysis of the deposited data

How the results depend on the processing

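Under glmTreat against a fold of 1.2, 10 of the 29 protease and inhibitor genes were higher and 1 lower, and 6 regulator genes were higher and 2 lower, against 13 and 5, and 12 and 5; that test requires the change itself to exceed the fold. The 5 genes past both thresholds were the same 5 genes in all 15 alternatives. With one sample left out, the higher genes numbered 12 to 13 and the lower genes 5 to 6, the regulators 8 to 11 and 4 to 5. Over refits of 32 named genes, 453 of 477 kept direction and side of the threshold, 14 were weaker, 1 stronger and 9 reversed. The reversed values were of genes not past the threshold. Adam1a was -0.0020 with library size only, and with one sample left out Adam1a was -0.19 to 0.30, Adamts17 -0.18 to 0.45 and Reck -0.084 to 0.031; the cause was not tested. Without a filter 12 genes were higher, Adam9 being lost.

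Control and STZ samples share replicate numbers, but the deviations of same-numbered samples correlated at 0.0429, -0.0270 and 0.0886, so no pairing is shown. A fit with the replicate block gave the same counts. In it 13 genes were higher, 5 lower and 5 past both thresholds, and 12 regulators were higher and 5 lower. Few reads limited Mmp17, Adam1a, Adamts4 and Adamts17 and the 22 genes not tested.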
